A study of Mus musculus with 22 samples.

Results

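The epithelial host defence genes Duox2, Duoxa2, Nos2 and Nox1 were followed across 6 groups of mouse intestinal tissue. They were picked by symbol, 4 of 46603 genes in the deposited tables, and all 4 were present. Duox2 and Duoxa2 had drawn notice through their levels in the Pectin and Control groups, and Nos2 and Nox1 were added for their function. The values of that pair of groups are therefore given without a test. Other comparisons that use the Pectin or Control libraries share values with that choice, so their tests of Duox2 and Duoxa2 are not independent of it. The study crossed exposure to PFOS (perfluorooctanesulfonic acid, a persistent fluorinated surfactant) with the fibre in the diet of wild-type male C57BL/6 mice, which were 7 weeks old when they entered. All groups ate, for 7 weeks, an irradiated diet that held 8% fibre by weight and drew 35% of its energy from fat, 45% from carbohydrate and 20% from protein. Pectin_PFOS (n = 4) and Pectin (n = 4) mice received pectin, Inulin_PFOS (n = 3) and Inulin (n = 3) mice inulin, both fermentable fibres, and PFOS (n = 4) and Control (n = 4) mice cellulose, which is poorly fermented. The 3 PFOS groups drank water with PFOS at 3 µg per kg of body weight per day, which was read from the titles, because the treatment label names PFOS for all samples. Whole tissue was sequenced. The titles number the libraries of a group as biological replicates without naming the animals, and p-values measure the spread between these libraries.

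DUOX2 is a dual oxidase of the apical membrane of epithelial cells that releases hydrogen peroxide into the gut lumen, and DUOXA2 is the maturation factor that carries it out of the endoplasmic reticulum. Inducible nitric oxide synthase, encoded by Nos2, makes nitric oxide from arginine in epithelial cells and macrophages. NOX1 is a superoxide-producing oxidase best known from colon epithelium, where it works with the subunits encoded by Cyba, Noxo1 and Noxa1. In mouse ileum, Duox2 and Nos2 are known as genes whose transcripts follow microbial colonisation and cytokine signals.

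Duox2 (ENSMUSG00000068452) and Duoxa2 (ENSMUSG00000027225) lie head to head on mouse chromosome 2. On GRCm38, the build of the tables' coordinates, Duox2 runs from 122279247 to 122298165 on the minus strand and Duoxa2 from 122298900 to 122302885 on the plus strand, with 734 bases between them. Nos2 (ENSMUSG00000020826) is on chromosome 11 from 78920787 to 78960254, plus strand, and Nox1 (ENSMUSG00000031257) on chromosome X from 134086421 to 134221956, minus strand. All 4 are protein-coding. Duoxa2 shares 682 exonic bases with Duoxa1 on the opposite strand, and Nox1 shares 399 with Cstf2, also on the opposite strand. The libraries were strand-specific per the labels, but whether counting used strand is not given in the sources used here, so reads from these shared stretches are uncertain.

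**Figure D1:**
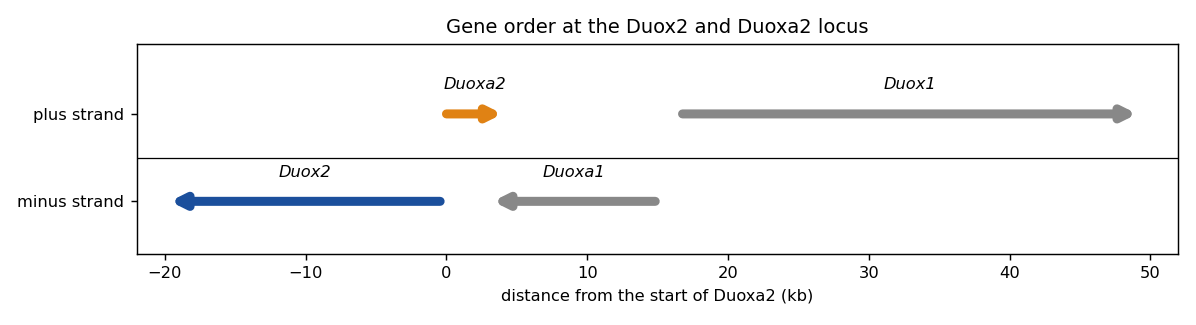
Gene order around Duox2 and Duoxa2. The horizontal axis gives the distance in kb from the start of Duoxa2, arrows point in the direction of transcription, and Duox2 and Duoxa2 start beside each other and run apart.

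The promoter windows of both genes are shown because the pair shares a start region and, as given below, their levels moved together from library to library. RefSeq windows on GRCm38.p6 (250 bases before to 50 after each gene's start, 5′ to 3′ on the gene's own strand) were found for 3 of the 4 genes, without Nos2. The RefSeq starts of Duox2 and Duoxa2 are 672 bases apart, which leaves 172 bases between the 2 windows. Capitals mark matches to the searched motifs.
Duox2, chr2:122298178-122298477, minus strand: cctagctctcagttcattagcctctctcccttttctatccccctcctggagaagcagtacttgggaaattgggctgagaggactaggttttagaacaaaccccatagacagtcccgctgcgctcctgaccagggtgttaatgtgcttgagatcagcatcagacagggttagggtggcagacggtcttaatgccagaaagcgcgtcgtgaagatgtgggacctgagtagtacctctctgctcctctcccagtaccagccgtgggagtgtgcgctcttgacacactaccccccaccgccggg
Duoxa2, chr2:122298650-122298949, plus strand: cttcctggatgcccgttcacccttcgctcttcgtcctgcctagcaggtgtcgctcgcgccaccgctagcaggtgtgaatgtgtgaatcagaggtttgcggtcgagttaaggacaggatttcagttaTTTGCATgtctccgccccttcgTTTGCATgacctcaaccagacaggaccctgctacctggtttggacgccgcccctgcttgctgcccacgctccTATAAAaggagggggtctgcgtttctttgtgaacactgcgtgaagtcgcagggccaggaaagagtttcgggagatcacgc
The motifs were searched on both strands. The Duoxa2 window holds 1 TATA box (TATAAA), which starts at base -30, and 2 copies of the octamer core (TTTGCAT), at -124 and -102, a motif that was added after the sequence had been read. Among 32851 promoters of the same length, 13.6% hold TATAAA and 4.6% TTTGCAT. Neither window matched the STAT letters TTCNNNGAA (8.3% of promoters), the IRF letters GAAANNGAAA (3.4%), the NF-kappaB letters GGGNNTTTCC (1.6%) or the GATA letters AGATAA (11.2%), and the Duox2 window matched none of the 6. GC content was 55.3% in the Duox2 window and 56.7% in the Duoxa2 window, against a median of 52.7% over all promoters.

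Library totals lay between 17613322 and 20261370 counts and mitochondrial genes took 2.85% to 14.9%. Pectin_PFOS 1 stood apart, with the smallest scaling factor (0.749) and the fewest genes with at least 10 counts (12919). The ileal marker Fabp6 had 5074 to 20814 TPM (transcripts per 1000000) in the 22 libraries. Of 7 colon markers, Hoxa13 and Hoxd12 were at 0 in all 22, and the list summed to at most 8.52 TPM. The epithelial marker Epcam had 930 to 2843 TPM. The labels give no gut segment. Of 8 listed genes of the proximal small intestine, the transcription factor gene Gata4 and the lactase gene Lct stood out in 4 libraries. In Pectin_PFOS 3, Pectin_PFOS 4, Pectin 2 and PFOS 4, Gata4 had 6.57 to 19.85 TPM and Lct 4.02 to 86.01 TPM. The other 18 had 0.19 to 1.36 TPM of Gata4 and 0.05 to 1.22 TPM of Lct. Slc40a1, of the same list, went the other way, with 3.83 to 16.59 TPM in the 4 and 9.62 to 51.02 TPM in the 18. Fabp1 overlapped (58.94 to 395.34 and 19.43 to 198.65 TPM). Onecut2, Cybrd1, Pdx1 and Gkn3 had at most 0.58 TPM in any library. The 4 libraries are called the Gata4-high libraries. A fit without all 4, added after seeing the data, is given beside the calls it ends among Duox2, Duoxa2, Nos2 and the 5 lists of pathway genes. It is not given for the cell type markers. Of 6 tested proximal genes, edgeR called 0 in Inulin_PFOS against PFOS, where the median log2 fold change was -1.35 and 5 had an unadjusted p below 0.05, and 0 in Pectin_PFOS against PFOS (median 0.08, 1 with an unadjusted p below 0.05). In Pectin against Inulin, where 6.12% of all genes were called higher, Slc40a1 was called higher. Of 7 tested ileal markers, Slc51a was called higher in Pectin_PFOS against PFOS (7.7% of all genes). Slc51a and Cubn were called higher in Pectin_PFOS against Pectin (11.4%). Cubn was called lower in Pectin against Control (0.958%) and in Pectin against Inulin (11.3%). The part of these genes' shifts in the results was not tested beyond the fit without the Gata4-high libraries. In whole tissue, fewer cells of a type and less RNA per cell cannot be told apart.

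Duox2, the oxidase itself, was high on the fermentable fibres and low on cellulose, with and without PFOS. Values are counts per 1000000 (CPM) after TMM scaling, which corrects for library composition. Under PFOS it had 425, 719.7, 653 and 535 CPM in Pectin_PFOS and 666, 539.5 and 445 CPM in Inulin_PFOS, against 63.4, 43.7, 96.4 and 25.5 CPM in PFOS. The lowest fermentable-fibre library stood far above the highest PFOS library, with no overlap. Without PFOS it had 217, 210.3, 544 and 281 CPM in Pectin and 67.4, 368.5 and 192 CPM in Inulin, against 37.6, 83.5, 84.0 and 77.7 CPM in Control. No Pectin library overlapped Control, while Inulin 1 lay inside the Control range.

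Duox2 rose 10.2-fold in Pectin_PFOS against PFOS (log2 fold change 3.35 ± 0.48 SE, adjusted p = 0.00064, edgeR quasi-likelihood test, adjusted over 15763 genes). In Inulin_PFOS against PFOS it rose 9.61-fold (3.26 ± 0.49, adjusted p = 0.00257). Calls were made at an adjusted p under 0.05. In Pectin_PFOS against PFOS 7.7% of all genes were called higher and 12% had libraries that did not overlap, higher in Pectin_PFOS. In Inulin_PFOS against PFOS these shares were 1.84% and 12.4%. Ordered by p among all genes, Duox2 came 18th for pectin and 10th for inulin. The comparisons share the 4 PFOS libraries. Without PFOS, the log2 fold change was 2.15 ± 0.45 in Pectin against Control, where 1.03% of genes were called higher and 3.95% did not overlap. It was 1.57 ± 0.47 in Inulin against Control (adjusted p = 0.0967), a pair without a call by edgeR in any gene (0%), although 3257 genes had an unadjusted p below 0.05. DESeq2 called 783 there, and gave Duox2 a log2 fold change of 1.59 with an adjusted p of 0.026.

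Adding PFOS to a diet gave no call for Duox2. Its mean was 583 ± 130 CPM in Pectin_PFOS and 313 ± 157 CPM in Pectin (SD, n = 4 each), a log2 fold change of 0.90 ± 0.44 (adjusted p = 0.141). Without Pectin 3, the highest Pectin library, the log2 fold change was 1.31 with an adjusted p of 0.048. The means were 550.2 ± 111 CPM in Inulin_PFOS and 209 ± 151 CPM in Inulin (n = 3 each). All 3 Inulin_PFOS libraries lay above all 3 Inulin libraries (1.39 ± 0.51, adjusted p = 0.168), as did those of 12.2% of genes, while 0.0698% of genes were called higher there. On cellulose the means were 57.3 ± 30.3 CPM in PFOS and 70.7 ± 22.3 CPM in Control (n = 4 each; -0.30 ± 0.44, adjusted p = 0.904), where edgeR called 0 of 15763 genes (842 had an unadjusted p below 0.05), DESeq2 1 and limma on unfiltered TPM 8. The difference between the PFOS effect on inulin and that on cellulose was 1.70 ± 0.67 (adjusted p = 0.176, edgeR). Between pectin and cellulose it was 1.20 ± 0.62 (adjusted p = 0.431, edgeR), and neither difference was called for Duox2. The pectin value holds the Pectin and Control levels through which Duox2 was noticed, so it is not independent of that choice.

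**Figure D2:**
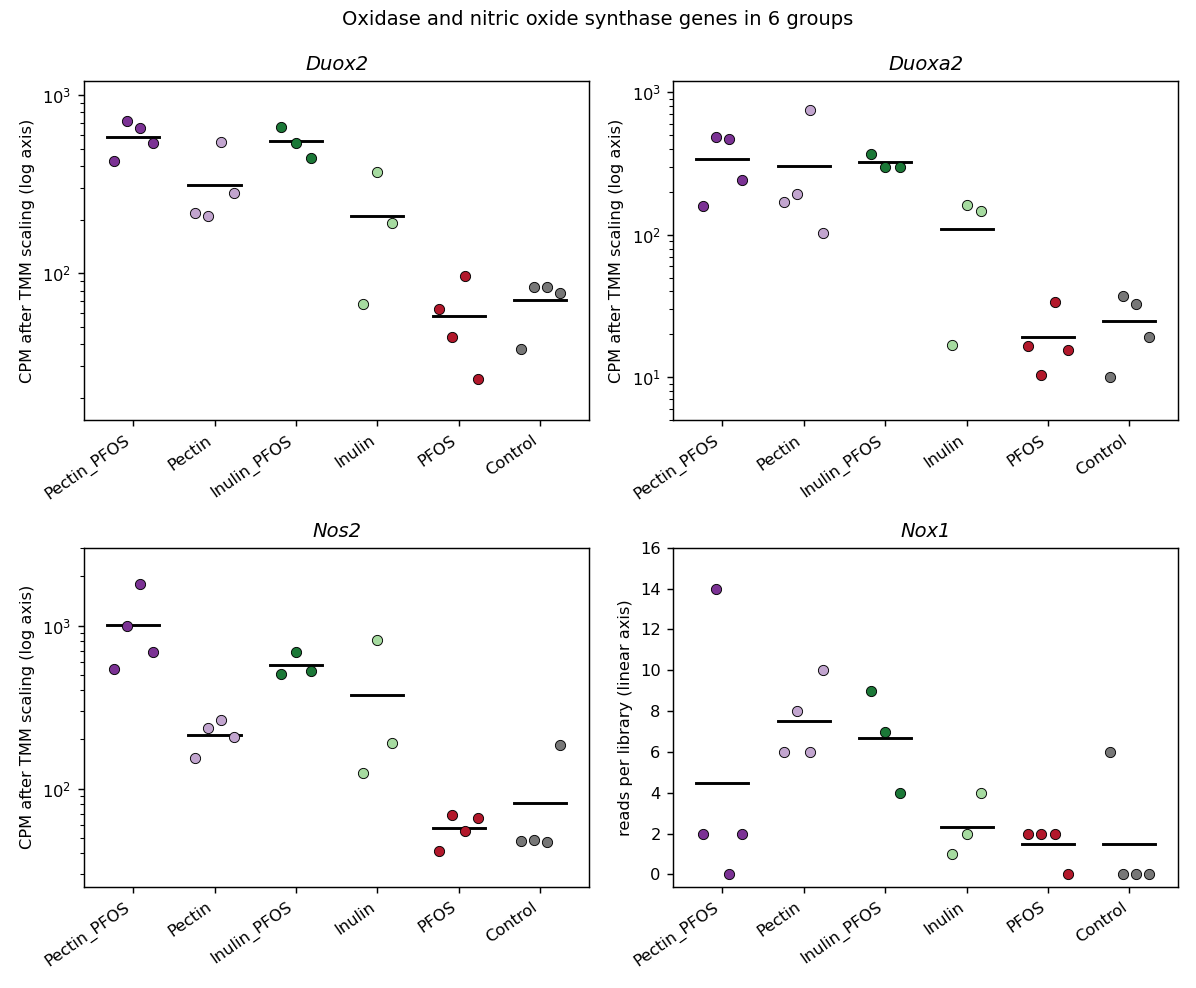
Levels of Duox2, Duoxa2 and Nos2 in CPM on a log axis and reads of Nox1 on a linear axis, with a point for each of the 22 libraries and a line at each group mean. Pectin_PFOS and Inulin_PFOS libraries of Duox2, Duoxa2 and Nos2 lie above all PFOS libraries, and Nox1 stays between 0 and 14 reads.

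Duoxa2, the maturation factor, was called in the same comparisons as Duox2. Under PFOS it had 160, 487, 473 and 240.5 CPM in Pectin_PFOS and 367, 300.7 and 301 CPM in Inulin_PFOS, against 16.7, 10.3, 33.5 and 15.6 CPM in PFOS. Every library of the fermentable fibres exceeded every PFOS library. Without PFOS it had 171, 193.5, 755 and 103 CPM in Pectin and 16.9, 163 and 147 CPM in Inulin, against 9.998, 37.1, 32.9 and 19.0 CPM in Control. Pectin 3 was the highest of all 22 libraries, and Inulin 1 again lay among the Control libraries.

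In Pectin_PFOS against PFOS Duoxa2 rose 17.9-fold (log2 fold change 4.16 ± 0.72, adjusted p = 0.00194, edgeR). It rose 17-fold in Inulin_PFOS against PFOS (4.08 ± 0.74, adjusted p = 0.00715). Pectin against Control gave 3.63 ± 0.70, or 2.65 without Pectin 3, and Inulin against Control 2.14 ± 0.69 (adjusted p = 0.112, and 0.0271 in DESeq2). The mean was 340 ± 165 CPM in Pectin_PFOS and 305.5 ± 302 CPM in Pectin (SD, n = 4 each; 0.16 ± 0.63, adjusted p = 0.882), and it turned on single libraries, from -0.15 without Pectin 4 to 1.13 without Pectin 3. It was also below 0 without Pectin_PFOS 2 (-0.07), Pectin_PFOS 3 (-0.05), Pectin 1 (-0.04) or Pectin 2 (-0.01). In Inulin_PFOS it averaged 323 ± 37.9 CPM, and in Inulin 109 ± 80.1 CPM (n = 3 each; 1.57 ± 0.75, adjusted p = 0.263), with no overlap. On cellulose, the averages were 19.0 ± 10 CPM in PFOS and 24.7 ± 12.5 CPM in Control (-0.38 ± 0.64, adjusted p = 0.918). Compared with the PFOS effect on cellulose, the effect on inulin was larger by 1.95 ± 0.98 (adjusted p = 0.279, edgeR). The effect on pectin was larger than that on cellulose by 0.53 ± 0.90 (adjusted p = 0.841, edgeR), and neither difference was called. The pectin value holds the Pectin and Control levels through which Duoxa2 was noticed, so it is not independent of that choice.

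Per transcript length, the maturation factor was on average the more abundant partner. The ratio of Duoxa2 to Duox2 TPM averaged 2.19 ± 0.634 in Pectin_PFOS, 2.33 ± 0.312 in Inulin_PFOS and 1.33 ± 0.659 in PFOS (SD, n = 4, 3 and 4). It was 3.35 ± 1.66 in Pectin, 1.82 ± 0.949 in Inulin and 1.27 ± 0.376 in Control (n = 4, 3 and 4). The ratio lay under 1 in 4 of the 22 libraries, which were Inulin 1, PFOS 1, PFOS 2 and Control 4, and it reached 5.47 in Pectin 3.

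Duox2 and Duoxa2 also moved together inside groups. Over the deviations of log2 CPM from the group means in 22 libraries, Pearson's r was 0.835 and Spearman's rho 0.823. The p-values from 100000 permutations of libraries within groups were 6e-04 for r and 0.00023 for rho, which gave 0.0036 and 0.00138 after adjustment over 6 pairs of genes. Without Inulin 1 and PFOS 4, the libraries farthest from the median in Duox2 alone, r was 0.837. With each library left out in turn, r lay between 0.741 and 0.899. Nos2 showed less of this, with r = 0.484 and rho = 0.325 against Duox2 (adjusted permutation p = 0.358 and 0.573) and r = 0.419 and rho = 0.301 against Duoxa2 (adjusted permutation p = 0.446 and 0.573). Single libraries moved both values, to r = 0.247 for Duox2 and Nos2 without Inulin 2 and to r = 0.198 for Duoxa2 and Nos2 without Inulin 1. No test compared the correlations with each other.

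**Figure D3:**
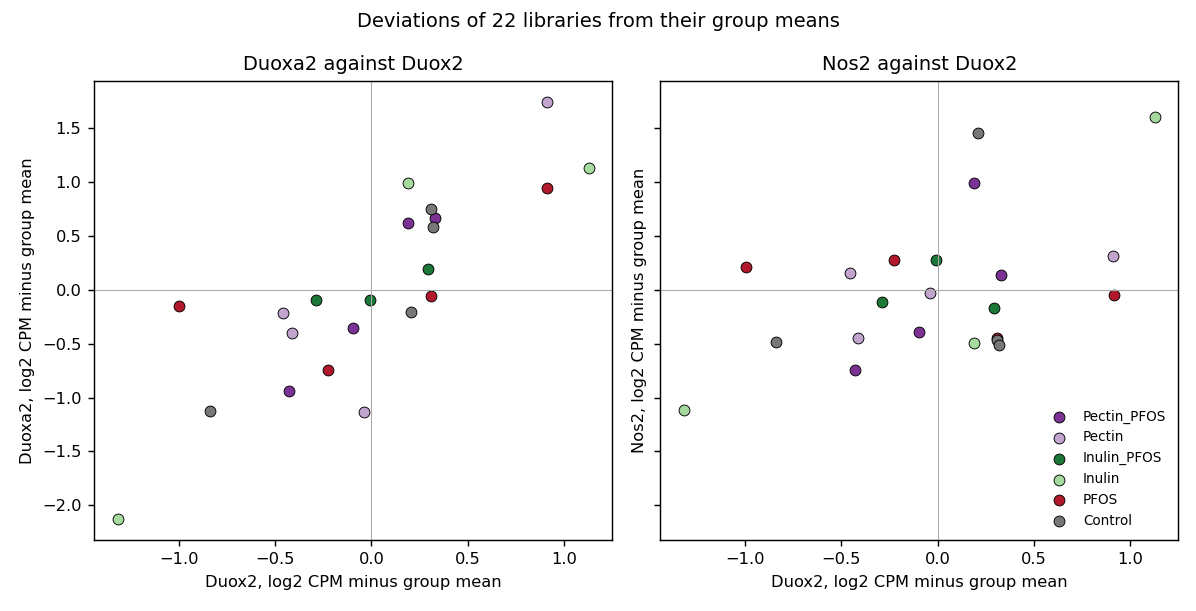
Deviations of log2 CPM from the group mean in 22 libraries, for Duoxa2 against Duox2 and for Nos2 against Duox2, both axes in log2 units. Duoxa2 follows Duox2 (r = 0.835) from Inulin 1 at the lower left to Inulin 2 and Pectin 3 at the upper right, while Nos2 scatters more widely (r = 0.484).

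Nos2, the inducible nitric oxide synthase, was highest in Pectin_PFOS. Under PFOS it had 542, 999, 1802 and 691 CPM in Pectin_PFOS and 508, 691 and 526.5 CPM in Inulin_PFOS, against 41.4, 68.6, 54.7 and 65.6 CPM in PFOS. The fermentable-fibre libraries did not overlap the PFOS libraries. Without PFOS it had 154, 234, 262 and 206.5 CPM in Pectin and 124, 813 and 190.5 CPM in Inulin, against 47.8, 48.5, 47.0 and 184.5 CPM in Control. Control 4 lay inside the range of Pectin, and Inulin 2 above every library outside Pectin_PFOS.

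Fermentable fibre under PFOS raised Nos2 17.5-fold with pectin (log2 fold change 4.13 ± 0.58, adjusted p = 0.00064, edgeR) and 9.99-fold with inulin (3.32 ± 0.58, adjusted p = 0.00568). By p it came 17th for pectin and 37th for inulin among 15763 genes. Per length it averaged 268 TPM in Pectin_PFOS, at rank 522 of 21586 genes above 0, and 143 TPM in Inulin_PFOS, at rank 780 of 21359. In PFOS it averaged 20.33 TPM, at rank 4558 of 22761. Without PFOS the log2 fold change was 1.39 ± 0.52 in Pectin against Control, or 2.16 without Control 4. In Inulin against Control it was 2.20 ± 0.56 (adjusted p = 0.0773). That value was not called in the fit of all libraries but was called by DESeq2 (adjusted p = 0.00679) and without Pectin_PFOS 1 (adjusted p = 0.049), and it ranged from 1.00 without Inulin 2 to 2.98 without Control 4. Over all alternatives its adjusted p lay between 0.00679 and 0.394.

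Among the 3 tested genes, Nos2 was called higher with PFOS on a diet, with pectin. It averaged 1008 ± 562 CPM in Pectin_PFOS and 214 ± 46.1 CPM in Pectin (SD, n = 4 each), with no overlap, a 4.71-fold rise (2.24 ± 0.54, adjusted p = 0.0102, edgeR). In that pair 11.4% of all genes were called higher and 12% did not overlap. The call held in all 22 fits that left out a library and under all 10 other settings, with an adjusted p of at most 0.0384. It did not hold without the 4 Gata4-high libraries, of which 3 are in this pair, where the log2 fold change was 1.88 and the adjusted p 0.0934. The same fit kept the calls of Duox2, Duoxa2 and Nos2 against PFOS, with adjusted p of 0.00635, 0.0184 and 0.00719 in Pectin_PFOS and of 0.0165, 0.0333 and 0.0228 in Inulin_PFOS. In Inulin_PFOS it averaged 575 ± 101 CPM, and in Inulin 376 ± 380 CPM (n = 3 each; 0.61 ± 0.60, adjusted p = 0.593, or 1.85 with an adjusted p of 0.0974 without Inulin 2). On cellulose the log2 fold change was -0.51 ± 0.52 for PFOS against Control (adjusted p = 0.865) and 0.27 without Control 4. The PFOS effect on pectin exceeded that on cellulose by 2.74 ± 0.74, with an unadjusted p of 0.00139 and an adjusted p of 0.266 in edgeR. DESeq2 gave that difference as 2.75 with an adjusted p of 0.0181. In that interaction DESeq2 called 119 genes and edgeR 0, although 1953 had an unadjusted p below 0.05 in edgeR. For inulin the difference was 1.12 ± 0.79 (adjusted p = 0.445), and between pectin and inulin 1.62 ± 0.79 (adjusted p = 0.132), where 25.4% of genes were called higher or lower.

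The fermentable fibres were set against each other as well. In Pectin_PFOS against Inulin_PFOS the log2 fold changes were 0.09 ± 0.47 for Duox2, 0.07 ± 0.68 for Duoxa2 and 0.81 ± 0.57 for Nos2 (adjusted p = 0.949, 0.971 and 0.502). No gene was called in that pair by edgeR (0 of 15763), although 2572 had an unadjusted p below 0.05. Without PFOS, Pectin against Inulin gave 0.58 ± 0.48, 1.49 ± 0.71 and -0.81 ± 0.55 (adjusted p = 0.395, 0.144 and 0.299). For Nos2 that value turned to 0.45 without Inulin 2. None of these 6 was called, which does not show equal levels. In Pectin against Inulin 6.12% of genes were called higher and 11.3% lower. Averaged over 3 diets, the PFOS effect was 0.66 ± 0.27 for Duox2, 0.45 ± 0.39 for Duoxa2 and 0.78 ± 0.32 for Nos2 (adjusted p = 0.264, 0.612 and 0.266), where 0.159% of genes were called in either direction.

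**Figure D4:**
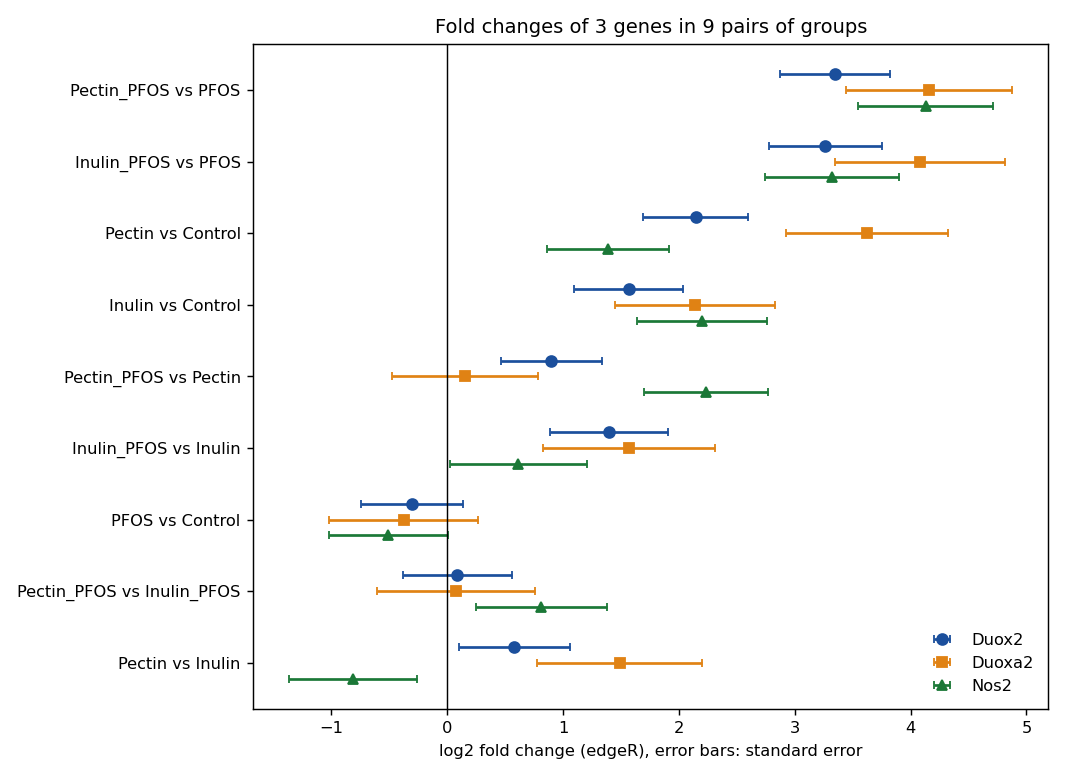
Log2 fold changes of Duox2, Duoxa2 and Nos2 in 9 pairs of groups, with bars of 1 standard error. The values of Pectin_PFOS vs PFOS and Inulin_PFOS vs PFOS lie between 3.26 and 4.16, Duoxa2 in Pectin vs Control lies at 3.63, and the 3 values of PFOS vs Control lie below 0 (-0.51 to -0.30).

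Nox1 was close to the detection limit. It had 2, 14, 0 and 2 reads in Pectin_PFOS, 9, 7 and 4 in Inulin_PFOS and 2, 2, 2 and 0 in PFOS. It had 6, 8, 6 and 10 reads in Pectin, 1, 2 and 4 in Inulin and 6, 0, 0 and 0 in Control. The filter on low counts removed it, so 3 of the 4 genes entered the tests. In CPM, its libraries did not overlap in Inulin_PFOS against PFOS, Pectin against Control or Pectin against Inulin (12.4%, 3.95% and 12.5% of tested genes did so in that direction). In Pectin against Control this held in CPM only. Pectin 1, Pectin 3 and Control 1 each had 6 reads. Control 1 had 0.18 TPM, above Pectin 1, Pectin 2 and Pectin 3 at 0.12, 0.17 and 0.16 TPM. In a fit of 25457 genes without a filter the smallest adjusted p was 0.281, in Inulin_PFOS against PFOS (2.31 ± 0.99) and in Pectin_PFOS against PFOS (1.83 ± 0.97). The 3 reads that a count of 0 allows are 0.133 to 0.198 CPM in these libraries, and such limits cover counting error only.

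The Nox1 partner subunits were well expressed. Noxo1, the organiser, averaged 53.9 to 71.3 TPM over the 6 groups, Noxa1, the activator, 4.38 to 10.8 TPM and Cyba, which encodes the p22phox membrane subunit, 125 to 250 TPM, while Nox1 averaged 0.0425 to 0.168 TPM. Of 14 other oxidase genes 13 were tested. In Pectin_PFOS against PFOS, where 7.7% of all genes rose and 8.33% fell, 2 rose and 1 fell, with a median log2 fold change of 0.49 against -0.03 over all genes. Cyba averaged 122 CPM in Pectin_PFOS and 48.1 CPM in PFOS (1.34 ± 0.33, adjusted p = 0.0113, edgeR), and Noxa1 14.1 CPM in Pectin_PFOS and 4.89 CPM in PFOS (1.53 ± 0.32, adjusted p = 0.0054). Noxa1 was called under all 32 other settings and Cyba under 29, and without the Gata4-high libraries Noxa1 alone kept its call. Nox4, an oxidase without need of activator subunits, had 0.0885 CPM in Pectin_PFOS (0 to 0.198), a value near single reads. In PFOS it had 0.697 CPM (adjusted p = 0.0248, edgeR). Nox4 lost this call without Pectin_PFOS 2, Pectin_PFOS 3, PFOS 2 or PFOS 3 and without the Gata4-high libraries. It also fell in Pectin_PFOS against Pectin (-2.80 ± 0.85, adjusted p = 0.0263), a call lost without Pectin_PFOS 2, Pectin_PFOS 3, Pectin 1 or Pectin 3 and without the Gata4-high libraries. In Inulin_PFOS against PFOS, where 1.84% of all genes rose, 1 of 13 rose (median 0.44, all genes -0.01). This was Duoxa1, the maturation factor of Duox1, at 0.459 CPM in Inulin_PFOS and 0.0354 CPM in PFOS, a value near single reads from a gene that overlaps Duoxa2. Its call was lost without any of the 3 Inulin_PFOS libraries, without PFOS 1, PFOS 2 or PFOS 3, without the Gata4-high libraries and under 5 of the 10 other settings. Duox1 averaged at most 0.567 CPM in any group, and Nox3 was at 0 in all libraries.

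Phagocytes also use Nos2 and an oxidase, gp91phox, encoded by Cybb. All 12 phagocyte markers were found and 8 tested. Their summed TPM ranged from 26.1 to 157 in Pectin_PFOS, 109 to 208 in Inulin_PFOS and 68.6 to 144 in PFOS, and edgeR called 0 of 8 in both comparisons of fermentable fibre under PFOS. With pectin 5 of 8 had a positive log2 fold change and 1 an unadjusted p below 0.05, and with inulin 8 and 2. The sums were 121 to 243 in Pectin, 59.4 to 215 in Inulin and 88.4 to 278 in Control. They rest largely on Lyz2, with a median of 108 TPM, while the next highest median was 6.1 TPM (Csf1r). In Pectin_PFOS against Pectin, where Nos2 rose and 9.43% of all genes fell, all 8 log2 fold changes were negative. Mrc1, a macrophage receptor, fell there (-1.05 ± 0.33, adjusted p = 0.0324). In Pectin against Control, where 1.03% of all genes rose, Itgam rose (1.86 ± 0.45, adjusted p = 0.04). Csf1r, Itgam and Cx3cr1, 3 of the 8, rose in Pectin against Inulin, where 6.12% of all genes rose. The macrophage marker Adgre1 stayed between 0.34 and 3.43 TPM, and the neutrophil markers Ly6g and Cxcr2 had a median of 0. Of 12 epithelial markers, Vil1, Krt18 and Krt19 rose in Pectin_PFOS against PFOS and Vil1, Cdx2 and Alpi in Pectin_PFOS against Pectin. Of all genes 7.7% rose in the former pair and 11.4% in the latter. Alpi fell in Pectin against Inulin, where 11.3% of all genes fell. Summed epithelial marker TPM was 22700 to 31800 in Pectin_PFOS, 12500 to 56000 in Pectin, 17500 to 28700 in Inulin_PFOS and 26600 to 61900 in PFOS. These sums rest largely on Fabp2, which ranged from 2046 to 50099 TPM with a median of 17700. The next highest median was 3100 TPM (Krt8). Of 6 endothelial markers, Kdr, Tek and Emcn fell in Pectin_PFOS against PFOS, where 8.33% of all genes fell. Their list summed to 2.09 to 24 TPM in Pectin_PFOS and 28.8 to 55.5 TPM in PFOS. In Inulin_PFOS the endothelial sums were 6.9 to 10.3 TPM, all 6 log2 fold changes against PFOS were negative (median -1.45), and edgeR called 0, though all 6 had an unadjusted p below 0.05. Summed lymphoid markers ranged from 56.5 to 345 TPM in Pectin_PFOS and 647 to 1170 TPM in Pectin, and Jchain, of plasma cells, fell there. Jchain made up much of these sums, with a median of 280 TPM over all libraries against 9.12 TPM for the next highest (Cd79a). Smooth muscle markers summed to 520 to 1530 TPM in Pectin_PFOS, 1170 to 3210 TPM in Pectin and 1740 to 2910 TPM in PFOS, with 0 of 10 called by edgeR in either pair (6 against Pectin and 3 against PFOS had an unadjusted p below 0.05). They summed to 1760 to 6410 TPM in Inulin_PFOS and 728 to 2900 TPM in Inulin. All 10 had positive log2 fold changes in Inulin_PFOS against Inulin (median 1.36) and against PFOS (median 0.98), with 0 called by edgeR and 8 and 2 with an unadjusted p below 0.05. The part of these shifts in the results was not tested.

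Genes that supply, use or restrain nitric oxide synthase changed in both directions. Of 17 such genes, all tested, 4 rose and 1 fell in Pectin_PFOS against PFOS (median 0.00, all genes -0.03), where 7.7% of all genes rose and 8.33% fell. Ddah1, which clears an inhibitor of the synthase, averaged 48.2 CPM in Pectin_PFOS and 25.8 CPM in PFOS (0.90 ± 0.26, adjusted p = 0.0246), and Asl, which regenerates arginine, 28.6 CPM in Pectin_PFOS and 17.99 CPM in PFOS (0.67 ± 0.20, adjusted p = 0.0297). The arginine transporter gene Slc7a1 rose (0.69 ± 0.21, adjusted p = 0.0334), Nostrin, a trafficking factor of the endothelial synthase, rose (0.54 ± 0.18, adjusted p = 0.0411), and the transporter gene Slc7a2 fell (-1.31 ± 0.38, adjusted p = 0.0243), a call lost without Pectin_PFOS 1, Pectin_PFOS 2, PFOS 1 or PFOS 3. The 4 higher calls became 0 to 2 without Pectin_PFOS 1, 2 or 3 or any PFOS library, and 0 under library totals or limma on TPM. Without the Gata4-high libraries 1 was called higher and 3 lower. In Pectin_PFOS against Pectin Nostrin rose (0.57 ± 0.18, adjusted p = 0.0289) and Pts, of tetrahydrobiopterin synthesis, fell (-0.47 ± 0.16, adjusted p = 0.0442). Nostrin lost its call there without Pectin_PFOS 1, Pectin 1, Pectin 2 or Pectin 4, Pts in 12 of 22 fits with a library left out, and both without the Gata4-high libraries. In Inulin_PFOS against PFOS edgeR called 0 of 17 (7 had an unadjusted p below 0.05) and DESeq2 2 higher and 2 lower, with a median of 0.30 over the list. Gch1, whose enzyme opens the synthesis of the cofactor tetrahydrobiopterin, averaged 31.3 ± 7.62 CPM in Pectin_PFOS, 49.6 ± 2.03 CPM in Inulin_PFOS and 24.4 ± 5.39 CPM in PFOS and was not called. Arginase 1 (Arg1) averaged at most 0.35 CPM and arginase 2 (Arg2) 62.2 to 98.3 CPM in any group.

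Among 20 genes that remove or use peroxide, 16 were tested. In both fibre comparisons under PFOS, Gpx1 and Gpx2, glutathione peroxidases, and Prdx6, a peroxiredoxin, rose. Of all genes 7.7% rose with pectin and 1.84% with inulin. Gpx2, the gastrointestinal form, averaged 495 CPM in Pectin_PFOS and 743 CPM in Inulin_PFOS, against 174 CPM in PFOS (1.51 ± 0.44 and 2.09 ± 0.47, adjusted p = 0.0273 and 0.023). Prdx6 averaged 107 CPM in Pectin_PFOS and 98.5 CPM in Inulin_PFOS, against 41.8 CPM in PFOS (1.36 ± 0.27 and 1.24 ± 0.28, adjusted p = 0.00403 and 0.0242). Gpx3, a secreted form, fell with pectin (-0.87 ± 0.28, adjusted p = 0.038), but not without Pectin_PFOS 1, Pectin_PFOS 3, Pectin_PFOS 4 or PFOS 2, without a low count filter or with the compared groups alone. Prdx6 with pectin was called under all 32 other settings. The 3 higher calls became 1 with pectin without Pectin_PFOS 2 or PFOS 2, and 0 or 1 with inulin without Inulin_PFOS 1, Inulin_PFOS 3, PFOS 1, PFOS 2 or PFOS 3. Under library totals 1 higher call was left in each, and with pectin 4 genes were called lower. Without the Gata4-high libraries 1 was called higher and 1 lower with pectin, Prdx6 being the one higher, and 3 higher with inulin, though Gpx2 was not among them. In Pectin_PFOS against Pectin, where 11.4% of all genes rose and 9.43% fell, 1 of 16 rose and 5 fell (median -0.54, all genes -0.06). Catalase (Cat) averaged 196.7 CPM in Pectin_PFOS and 120.1 CPM in Pectin and lost its call without Pectin_PFOS 1, Pectin 1, Pectin 2 or Pectin 4, and Prdx4 (-1.36 ± 0.31, adjusted p = 0.0079), Gpx8 (-1.60 ± 0.38, adjusted p = 0.00991) and Sod3 (-1.40 ± 0.35, adjusted p = 0.011) fell, as did Gpx4 and Prdx1. Of the 5, Prdx4, Gpx8 and Sod3 kept their call without each library, and 3 were left without Pectin_PFOS 1, 2 or 4 or Pectin 1 or 2. Without the Gata4-high libraries Sod3 alone kept its call.

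Genes of the signals known to act on these enzymes were tested for 25 of 31. In Pectin_PFOS against PFOS, where 7.7% of all genes rose and 8.33% fell, 7 rose and 0 fell (median 0.47, all genes -0.03). Nfkbiz, an inducible NF-kappaB cofactor of IL-17 responses, averaged 66.6 CPM in Pectin_PFOS and 83.1 CPM in Inulin_PFOS, against 24.02 CPM in PFOS (1.47 ± 0.31 and 1.79 ± 0.33, adjusted p = 0.00537 and 0.00715), and was called under all 32 other settings in both. Irf1, an interferon-responsive transcription factor gene, rose in both (1.21 ± 0.30 and 1.304 ± 0.31, adjusted p = 0.0112 and 0.0294). Myd88, Stat3, Nfkb1 and the IL-17 receptor adaptor gene Traf3ip2 also rose with pectin. The 7 calls became 4 without PFOS 3, 3 under library totals and 2 with limma on TPM, and 3, Nfkbiz and Irf1 among them, without the Gata4-high libraries. With inulin, where 1.84% of all genes rose, 3 of 25 rose. The count was 5 without Pectin_PFOS 1 and 1 without Inulin_PFOS 1, Inulin_PFOS 2, PFOS 1, PFOS 2 or PFOS 3. In Pectin_PFOS against Pectin, where 11.4% of all genes rose and 9.43% fell, 9 rose and 0 fell (median 0.45, all genes -0.06). These included Il17ra, an IL-17 receptor subunit, at 30.7 CPM in Pectin_PFOS and 12.8 CPM in Pectin (1.26 ± 0.22, adjusted p = 0.00286), and Ticam1, an adaptor of Toll-like receptors, at 113 CPM in Pectin_PFOS and 65.5 CPM in Pectin (0.79 ± 0.19, adjusted p = 0.00988). Il17rc, another IL-17 receptor subunit (0.75 ± 0.23, adjusted p = 0.0296), Stat3, a transcription factor gene of IL-22 signalling (0.61 ± 0.19, adjusted p = 0.0275), Nfkb1, an NF-kappaB subunit (0.64 ± 0.20, adjusted p = 0.0322), and Myd88, an adaptor of Toll-like and IL-1 receptors (0.50 ± 0.16, adjusted p = 0.0342), also rose. Il17ra and Ticam1 were called under all 32 other settings and, as the only 2 of the 9, without the Gata4-high libraries, but the count of 9 became 2 without Pectin_PFOS 1, Pectin 1 or Pectin 2, 3 without Pectin 4, 4 without Pectin_PFOS 2 and 2 under library totals. The ligands were near the detection limit, with Il17a, Il22 and Ifng averaging at most 0.204, 0.33 and 0.229 CPM in any group.

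Epithelial genes known to respond to gut microbes formed the list with the most calls beside Duox2, Duoxa2 and Nos2. Of 14 such genes 13 were tested, and 10 rose and 0 fell in Pectin_PFOS against PFOS (median 3.36, all genes -0.03) and in Inulin_PFOS against PFOS (median 3.77, all genes -0.01). The share of all genes that rose was 7.7% with pectin and 1.84% with inulin. Fut2, the fucosyltransferase of the gut surface, averaged 53.8 ± 35.1 CPM in Pectin_PFOS and 66.2 ± 6.06 CPM in Inulin_PFOS, against 2.93 ± 2.08 CPM in PFOS (4.19 ± 0.78 and 4.49 ± 0.81, adjusted p = 0.0032 and 0.00715). Pigr, which carries IgA across the epithelium, had 2908 CPM in Pectin_PFOS and 1934 CPM in Inulin_PFOS, against 284 CPM in PFOS (3.36 ± 0.46 and 2.77 ± 0.47, adjusted p = 0.000631 and 0.00482). The antimicrobial lectin gene Reg3g rose by 4.15 ± 0.88 and 4.33 ± 0.91 (adjusted p = 0.00574 and 0.0152). Reg3a, Reg3b, Saa1, Saa2, Saa3 and Zbp1 rose in both, Ccl20 with pectin and Retnlb with inulin. With pectin the count stayed at 9 or 10 without each library, and with inulin it became 5 without Inulin_PFOS 1, PFOS 1 or PFOS 2. Without the Gata4-high libraries it was 9 with pectin and 5 with inulin, where Reg3b, Reg3g, Saa1, Saa2 and Retnlb lost their calls. In Pectin_PFOS against Pectin, where Nos2 rose, edgeR called 0 of 13 (1 had an unadjusted p below 0.05) and DESeq2 0 (median 0.06, all genes -0.06). Of the 84 tested genes of the 5 lists, edgeR called 0 in Inulin_PFOS against Inulin, Inulin against Control, PFOS against Control and Pectin_PFOS against Inulin_PFOS, where 25, 16, 12 and 13 had an unadjusted p below 0.05. In Pectin against Control, where 1.03% of all genes rose and 0.958% fell, 6 of the 84 rose and 1 fell. Higher were Gpx1 (1.05 ± 0.25, adjusted p = 0.0356), Gpx2 (1.99 ± 0.45, adjusted p = 0.0319), Prdx6 (1.58 ± 0.27, adjusted p = 0.011), Il1b (2.52 ± 0.57, adjusted p = 0.0312), Reg3a (1.59 ± 0.35, adjusted p = 0.0308) and Zbp1 (3.10 ± 0.54, adjusted p = 0.0128), and Il17ra was lower (-1.01 ± 0.22, adjusted p = 0.0299). Prdx6 and Zbp1 kept their calls without each library, and the other 5 lost theirs without Control 1 and without Pectin 3, among others. Without the Gata4-high libraries Prdx6, Reg3a and Zbp1 kept their calls, while Gpx1, Gpx2, Il1b and Il17ra lost theirs. In Pectin against Inulin, where 6.12% of all genes rose and 11.3% fell, 10 of the 84 rose (Duoxa1, Gpx1, Gpx2, Gpx3, Prdx3, Prdx4, Prdx6, Il1b, Retnlb and Zbp1) and 5 fell (Cat, Il17ra, Il22ra1, Il10rb and Ticam1). Prdx6 (1.45 ± 0.30, adjusted p = 0.00448) and Il17ra (-1.34 ± 0.24, adjusted p = 0.00231) were called there without each library, and the other 13 calls were lost without Inulin 1. Duoxa1, Gpx3, Prdx3, Il1b, Il22ra1 and Il10rb also lost their calls without the Gata4-high libraries.

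**Figure D5:**
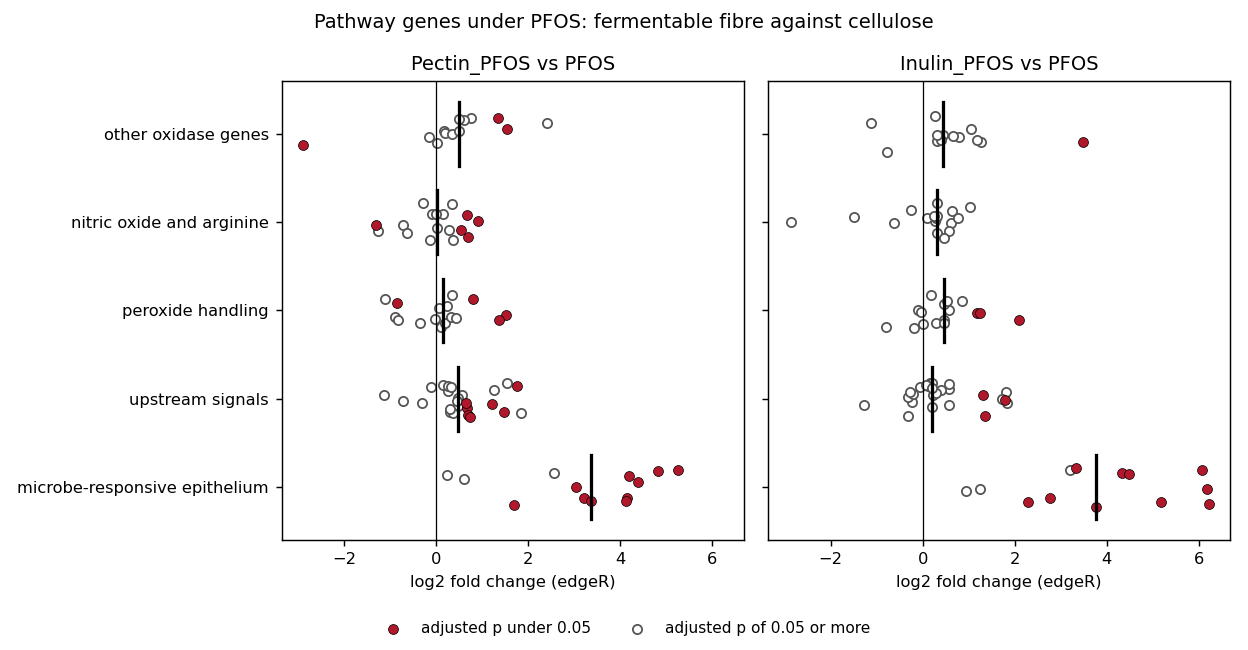
Log2 fold changes of tested pathway genes in Pectin_PFOS vs PFOS and Inulin_PFOS vs PFOS, with filled points for an adjusted p under 0.05 and a vertical bar at each list's median. The microbe-responsive list lies farthest to the right (medians 3.36 and 3.77), and the other 4 lists have medians between 0.00 and 0.49.

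The genes most like each member over the 22 libraries were taken from 12570 tested genes of at least 1 CPM, by Pearson's r of log2 CPM, a description to which the group differences contribute. For Duox2 they were Duoxa2 (0.96), Fut2 (0.943), B3gnt7 (0.933), Ripk3 (0.916) and B3galt5 (0.914). B3gnt7 and B3galt5 encode glycosyltransferases and Ripk3 a kinase of necroptosis. For Duoxa2 they were Duox2 (0.96), Fam3b (0.936), Zbp1 (0.92), Ift22 (0.918) and Kctd5 (0.917). Those of Nos2 were Zc3h12a (0.944), Gramd2 (0.918), Gdpd1 (0.891), Duox2 (0.89) and Gpr160 (0.886), of which Zc3h12a encodes an RNase that degrades inflammatory transcripts. With the group means removed, r was 0.751 for Duox2 and Fut2, 0.817 for Duox2 and B3galt5, 0.761 for Nos2 and Zc3h12a and 0.82 for Nos2 and Gramd2. It dropped further for others, to 0.559 for Duox2 and Ripk3, 0.331 for Nos2 and Gdpd1 and 0.457 for Nos2 and Gpr160. For Duoxa2 it lay between 0.683 (Zbp1) and 0.764 (Ift22) apart from Duox2. Nox1 had too few reads for such a measure to be read.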

How the data were processed

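The authors deposited an expected count (a read estimate that need not be whole) and a TPM value for each gene in 22 libraries. Tools named in the submitters' processing notes are HISAT and Bowtie2, with the build GRCm39 and no version or role. The coordinates in the tables are those of GRCm38, since 38860 of 46005 genes shared with GENCODE M21 have the same start and end. No source used here gives the counting program or its treatment of strand. Fractional counts (3.8% to 4.8% of a library's genes) were rounded. Robust quasi-likelihood F tests of edgeR 4.0.16 (R 4.3.3), with TMM scaling and the default expression filter, used a mean for each of the 6 groups over all libraries. All tests were two-sided. Benjamini-Hochberg adjustment covered 15763 genes in each of 13 comparisons. A standard error is |log2 fold change| / sqrt(F). Log2 CPM had a prior count of 2. The biological coefficient of variation was 31.9%. Scripts were tested on simulated data. The genes and lists were chosen with earlier results of these data known, so their p-values are not independent evidence. Of 166 list entries 165 were found by symbol and 1 by gene ID. Named were the 4 genes, the 5 genes most like each and list genes that passed (at most 6 per list and pair by p). Marker genes and Gch1, Arg1, Arg2, Duox1, Nox3, Noxo1, Il17a, Il22 and Ifng were named for their role, and called genes of the peroxide list in Pectin against Inulin and of the signal and microbe-responsive lists under PFOS were named beyond that number, after their values were seen. Alternatives used DESeq2 1.42.0, limma 3.58.1 on log2(TPM + 1) and log2(TPM + 0.1), other filters and scaling, the compared groups only, a replicate block and each library left out. List counts under these settings, and a fit without the 4 libraries with over 5 TPM of Gata4, were added after seeing the data. Libraries with the same replicate number did not deviate together in every pair of any comparison (r over 0.1 was required), so they were not treated as paired. This check and the replicate block used the biological replicate number. The titles also carry another number, with gaps, and pairing by it was not examined. RefSeq promoter windows came from GRCm38.p6. The values of 1 gene of the signal list are not reported here, though it stays in the counts.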

Additional observations from a re-analysis of the deposited data

Results flagged for a closer look

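Among 16 sets of 4 libraries of a gene and group, 4 held a library far from the other 3, where chance flags about 1 in 20. In Control, replicate 1 had the lowest Duox2 level (37.57 CPM, with the nearest library at 77.73 CPM), and replicate 4 the highest Nos2 level (184.5 CPM, with the nearest at 48.54 CPM). For Nox1, PFOS replicate 4 had 0 CPM, with the nearest library at 0.0912 CPM, and Control replicate 1 had 0.279 CPM while the other 3 had 0, differences of a few reads. Control 4 also had the highest mitochondrial share, 14.9%, and its part in the Nos2 level was not tested.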

How the results depend on the processing

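Each of the 7 calls of Duox2, Duoxa2 and Nos2 held in all 22 fits that left out a library and under all 10 other settings. Without the 4 Gata4-high libraries together, added after seeing the data, 6 of the 7 held, while Nos2 in Pectin_PFOS against Pectin gave 1.88 (adjusted p = 0.0934) and Duoxa2 there -0.09, r was -0.001 for Duox2 and Nox1, 0.062 for Duoxa2 and Nox1 and 0.019 for Nos2 and Nox1, and 510 genes were called in Pectin_PFOS against Pectin, 1374 in Pectin against Inulin and 36 in Pectin against Control. DESeq2 alone among the 10 added calls, for Inulin against Control of Duox2 (1.59, adjusted p = 0.026), Duoxa2 (2.15, adjusted p = 0.0271) and Nos2 (2.23, adjusted p = 0.00679) and for the difference of PFOS effects between pectin and cellulose of Nos2 (2.75, adjusted p = 0.0181). The replicate block turned Duoxa2 in Pectin_PFOS against Inulin_PFOS to -0.07 (adjusted p = 0.962) and changed no call of these genes, though it raised that pair's count of called genes to 648, from 0. On log2(TPM + 1), r for Duoxa2 and Nox1 was 0.053. With 1 library left out, the log2 fold changes ranged, in Pectin_PFOS against Inulin_PFOS, from -0.039 to 0.25 for Duox2 and from -0.15 to 0.31 for Duoxa2. In Pectin_PFOS against Pectin they ranged from 0.75 to 1.31 for Duox2 (1 call, without Pectin 3) and from -0.15 to 1.13 for Duoxa2. For Nos2 the ranges were 1.00 to 2.98 in Inulin against Control, 1.19 to 2.16 in Pectin against Control, -1.23 to 0.45 in Pectin against Inulin and -0.70 to 0.27 in PFOS against Control. Within groups, r ranged from 0.247 to 0.57 for Duox2 and Nos2, -0.048 to 0.317 for Duox2 and Nox1, 0.198 to 0.541 for Duoxa2 and Nos2, -0.201 to 0.185 for Duoxa2 and Nox1 and -0.303 to 0.001 for Nos2 and Nox1. Of the log2 fold changes recomputed without 1 library or under the 10 other settings, 1226 kept direction and call, 6 gained a call, 12 changed sign and 1 moved beyond the replicate spread. These counts leave out the fit without the Gata4-high libraries. The cause was not tested. Counts of called genes, and so the background shares, moved more: 2526 in Pectin_PFOS against PFOS (1265 without PFOS 3 to 3829 under library totals), 416 in Inulin_PFOS against PFOS (73 without PFOS 2 to 2627 with limma), 3277 in Pectin_PFOS against Pectin (729 to 4051), 25 in Inulin_PFOS against Inulin (0 to 506), 313 in Pectin against Control (27 to 856), 2753 in Pectin against Inulin (357 to 3610) and 0 in Inulin against Control (up to 794 without Control 1). They were 0 for the interaction with inulin (up to 767), 0 for that with pectin (up to 119), 4007 for pectin minus inulin (891 to 4673), 25 for the averaged effect (6 to 206) and 0 for PFOS against Control (up to 8). Scaled by library totals, all genes together had a median log2 fold change of -0.41 in Pectin_PFOS against PFOS, -0.33 in Inulin_PFOS against PFOS and -0.27 in Pectin_PFOS against Pectin, against which the changes of the called genes are to be read. Depth limits Nox1, at 0 to 14 reads.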
